A study of Homo sapiens with 15 samples.

Results

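The genes described are 6 members of the MYC and MAX network: MYC, MAX, MNT, MGA, MXI1 and MLX. Their loci were taken as 3 kb on either side of 1 start per gene in the human build hg19, and for MYC also the whole body of the gene. In these loci lay 9 of the 20388 peaks called by chromatin immunoprecipitation and sequencing (ChIP-seq). They were 2 of the 2527 peaks of wild-type MYC, 1 of the 690 peaks of a MYC deficient in binding WDR5, and 6 of the 17171 peaks of WDR5. The cells were HEK293, an established human embryonic kidney line. In 3 groups the cells had been transduced with a retrovirus and were precipitated with M2 anti-FLAG agarose. The virus encoded wild-type MYC with a FLAG tag (WT-MYC), the WDR5 binding-deficient form with the same tag (WBM-MYC), or nothing (empty vector). In the other groups HEK293 cells without a retrovirus were precipitated with an antibody to WDR5 or with rabbit IgG, so the WDR5 peaks come from cells with no tagged MYC. Each of the 5 groups had 3 libraries from independent biological replicates, per the labels. There was 1 peak list for each tagged form of MYC and 1 for WDR5, so the spread over replicates is unknown and no test over the 6 loci was made. Vector and IgG peaks were not analysed here, and the read depth is unknown. A missing peak therefore means that no site passed the authors' threshold, which is not given in the sources used here, and not that the protein was absent.

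MYC is a transcription factor of the basic helix-loop-helix leucine zipper family, which binds DNA as a dimer with MAX, its obligate partner, at E-boxes such as CACGTG. MNT, MXI1 and MGA also pair with MAX. MNT and MXI1 compete with MYC for it and recruit SIN3 corepressors, and MGA, which also has a T-box domain, belongs to a variant Polycomb repressive complex. MLX forms a parallel network with the glucose-responsive factors MLXIP and MLXIPL and can also pair with MNT. WDR5 is a scaffold of the histone H3 lysine 4 methyltransferase complexes found at active promoters, and it contacts MYC directly.

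WDR5 lay within 3 kb of the starts of 5 of the 6 genes, MAX, MNT, MGA, MXI1 and MLX, and not of MYC. WT-MYC lay within 3 kb of 1 start, that of MAX, and WBM-MYC within 3 kb of none. No start had peaks of all 3 lists. As a background, the genome was cut into windows of the same width, 6001 bp: 2.83% held a WDR5 peak, 0.508% a WT-MYC peak, 0.141% a WBM-MYC peak and 0.0836% peaks of all 3. These windows are mostly not at gene starts, and the share of all gene starts with WDR5 was not measured. The 5 of 6 genes with WDR5 therefore cannot be called particular to this network. For the MYC lists, windows centred on WDR5 peaks are the nearer reference. Of those, 17.1% held a WT-MYC peak, 4.22% a WBM-MYC peak and 3.23% peaks of all 3 lists. The 1 of 5 starts with WDR5 that also had WT-MYC is near that background, as is the absence of WBM-MYC from these 5 starts. The other 4 had WDR5 and neither form of MYC, a pattern found in 81.9% of windows centred on a WDR5 peak.

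**Figure D1:**
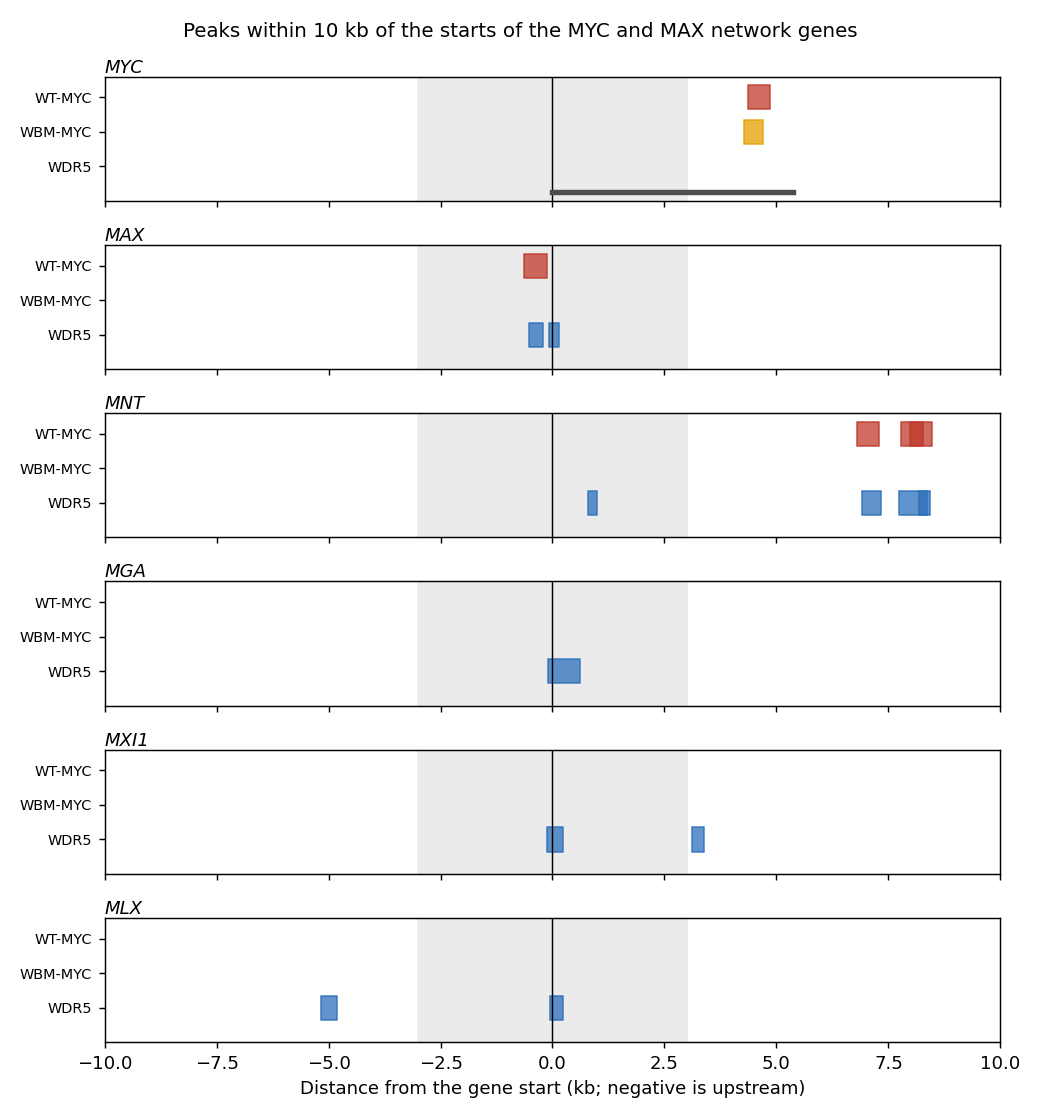
Peaks within 10 kb of the start of each gene, by distance from the start in kb (negative is upstream), in 1 row per peak list. The grey band is 3 kb on either side and the dark bar is the body of MYC. WDR5 peaks lie in the band at 5 genes and a WT-MYC peak at MAX, while the body of MYC holds 1 peak of each tagged form and no WDR5 peak.

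The promoter sequences of MNT and MLX are shown because both carry a CACGTG E-box, while these genes had a WDR5 peak and no WT-MYC peak within 3 kb of the start. They are RefSeq sequences of the build GRCh38.p14, from 250 bases before to 50 after an annotated start, 5′ to 3′ along the gene, with CACGTG in capitals. Both genes are on chromosome 17, MNT on the minus strand and MLX on the plus strand.
MNT: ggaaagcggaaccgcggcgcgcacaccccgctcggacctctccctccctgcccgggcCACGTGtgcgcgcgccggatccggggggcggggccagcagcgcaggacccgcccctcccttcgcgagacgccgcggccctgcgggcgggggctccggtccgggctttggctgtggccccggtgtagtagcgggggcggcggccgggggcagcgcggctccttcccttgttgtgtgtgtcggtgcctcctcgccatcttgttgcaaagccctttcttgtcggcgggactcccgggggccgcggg
MLX: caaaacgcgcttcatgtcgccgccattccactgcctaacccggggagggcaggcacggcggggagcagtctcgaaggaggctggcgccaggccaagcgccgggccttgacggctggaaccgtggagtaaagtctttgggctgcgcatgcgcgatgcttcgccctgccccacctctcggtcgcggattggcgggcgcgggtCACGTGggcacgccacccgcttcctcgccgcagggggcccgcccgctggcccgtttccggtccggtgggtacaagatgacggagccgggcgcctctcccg

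The E-box began 193 bases before the annotated start of MNT and 50 bases before that of MLX. The RefSeq table held 10 promoters for 5 of the 6 genes, and MNT and MLX were the 2 with a CACGTG, which reads the same on both strands. Of all 35116 promoters of the table, 7.26% held it. The variant CACGCG, searched on both strands, was found in 1 of the 3 promoters of MGA and 1 of the 3 of MXI1, against 11.4% of all promoters. The broader pattern CANNTG, which includes CACGTG, was found in 68.7% of all promoters and in 5 of these 10. Those were the promoters of MNT and MLX, 2 of the 3 of MGA and 1 of the 3 of MXI1, and neither of the 2 of MAX held it. The builds of the sequences and of the peaks differ, so a start in the table need not be the start used here and no motif was placed within a peak.

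At MYC itself, both tagged forms had a peak inside the body of the gene and none near its start. The body runs from 128748315 to 128753680 on chromosome 8, 5366 bp on the plus strand. The WT-MYC peak spanned 128752685 to 128753180, from 4370 to 4865 bp downstream of the start. The WBM-MYC peak spanned 128752595 to 128753019, from 4280 to 4704 bp downstream. They shared 335 bp, 78.8% of the shorter peak, and lay between 79.8 and 90.7% of the way along the body, toward its 3′ end. WDR5 had no peak in the body. The nearest WDR5 peak lay 53291 bp from the WT-MYC peak and 53452 bp from the WBM-MYC peak.

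The WBM-MYC peak in the body of MYC was 425 bp wide, 1 of 5 in its list that were narrower than the otherwise fixed width of 456 bp. The WT-MYC peak there had the fixed width of its list, 496 bp, shared by 97.9% of its peaks. No peak has a score, and what the order of the lines means is not stated. By file position the WT-MYC peak was line 335 of 2527 and the WBM-MYC peak line 194 of 690, which is 13.3 and 28.1% of the way down their lists.

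Such a distance from WDR5 was uncommon among sites of both MYC forms. Of the 527 WT-MYC peaks that overlapped a WBM-MYC peak, 419 overlapped a WDR5 peak, and 49 (9.3%) lay at least 53291 bp from one. Of these 49 peaks 20 were on chromosome 9 and 29 on other chromosomes, that in MYC included. Among windows of 6001 bp along the genome, 98 (0.0194%) held peaks of both MYC lists and none of WDR5, and 422 (0.0836%) held peaks of all 3 lists. Both shares are small because most of these windows held no MYC peak, so they do not give the rarity among MYC sites. Cells of both lists with a peak in the body carry a retrovirus with a MYC coding sequence, and the WDR5 cells do not. Whether DNA of this virus gave the peaks was not tested: reads from it and from the gene itself cannot be told apart in peak lists, and the antibody differs between these lists as well as the cells.

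Outside the body, the next peaks lay 58.2 kb downstream of the start of MYC, and there all 3 lists had one. The WDR5 peak spanned 128806471 to 128807048, the WT-MYC peak 128806591 to 128807086 and the WBM-MYC peak 128806571 to 128807026. The WBM-MYC peak lay wholly within the WDR5 peak, with centres 39 bp apart, and the WT-MYC and WDR5 centres lay 79 bp apart. At this site WT-MYC stood at line 103 of its list and WDR5 at line 712 of 17171, both in the first 4.15% of their lists, while WBM-MYC stood at line 345, 50% of the way down. The gene next to MYC on this side in the RefSeq table is PVT1, a long noncoding RNA gene. Upstream of MYC, the nearest WT-MYC and WBM-MYC peaks were 1.18 Mb away, and 2 WDR5 peaks lay in the gap between them and the body.

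MAX, the partner that MYC needs to bind DNA, was the member with WT-MYC and WDR5 together at its start, which is at 65569227 on chromosome 14 (minus strand). The WT-MYC peak spanned 65569358 to 65569853, from 131 to 626 bp upstream, and was line 661 of its list (26.2%). A WDR5 peak of 304 bp, 65569449 to 65569752, lay wholly inside it, with centres 5 bp apart. A further WDR5 peak of 232 bp, 65569078 to 65569309, covered the start itself and ended 48 bp short of the WT-MYC peak. The upstream WDR5 peak was line 5272 of 17171 (30.7%) and the one over the start line 14797 (86.2%).

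WT-MYC thus overlapped the earlier of the WDR5 peaks at MAX and lay beside the later one. No other peak of any list lay within 100 kb of the start of MAX. The nearest WBM-MYC peak was 8.68 Mb upstream and, on the other side, the next was 29.6 Mb downstream. Of all WDR5 peaks 11.8% lay at least as far from a WBM-MYC peak. That gap of 38.2 Mb held 222 WDR5 peaks, and chromosome 14 had 10 WBM-MYC peaks in all. Without WBM-MYC, a pattern of WT-MYC and WDR5 was found in 13.8% of windows of 6001 bp centred on a WDR5 peak.

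MNT, a repressor that pairs with MAX and with MLX, had a narrow WDR5 peak near its start and a group of joint WT-MYC and WDR5 sites further downstream. Its start is at 2304258 on chromosome 17 (minus strand). The WDR5 peak near it, 2303256 to 2303472, lay from 786 to 1002 bp downstream of the start, was 217 bp wide and stood at line 12293 (71.6%). Of all WDR5 peaks 4.8% were narrower. It overlapped neither MYC list.

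Further into MNT, between 6794 and 8473 bp downstream of the start, 3 WT-MYC peaks met 3 WDR5 peaks. RefSeq gives the gene a length of 16988 bp in GRCh38, longer than these distances. The WT-MYC peak at 2296969 to 2297464 (line 1376) shared 384 bp with the WDR5 peak at 2296917 to 2297352 (line 8174), with centres 82 bp apart. The WT-MYC peaks at 2295785 to 2296280 (line 1004) and 2295985 to 2296480 (line 1297) overlap each other. They met WDR5 peaks at 2295838 to 2296072 and 2295900 to 2296523, which also overlap each other. The centres of the closest pair there lay 21 bp apart. Each of the 3 WT-MYC peaks thus had WDR5 and no WBM-MYC. Of all 2527 WT-MYC peaks, 2096 (82.9%) overlapped WDR5 and only 527 overlapped WBM-MYC, so neither trait is particular to MNT. The lines of these 3 peaks ran from 39.7 to 54.5% of the list, later than that of the peak at MAX.

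The nearest WBM-MYC peak to MNT lay 64.3 kb downstream of the start, outside the length of the gene, at 2239493 to 2239948. It shared 375 bp with a WT-MYC peak at 2239372 to 2239867 and 422 bp with a WDR5 peak at 2239527 to 2240165. This WDR5 peak was 639 bp wide and early in its list (line 1453, 8.46%), the WT-MYC peak was line 509 (20.1%) and the WBM-MYC peak line 462 (67%). MNT and MYC were thus the members with a site of all 3 lists within 100 kb. Such a site, or separate peaks of the 3 lists, was present in 3.12% of windows of 200001 bp along the genome and in 13.2% of those centred on a WDR5 peak.

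**Figure D2:**
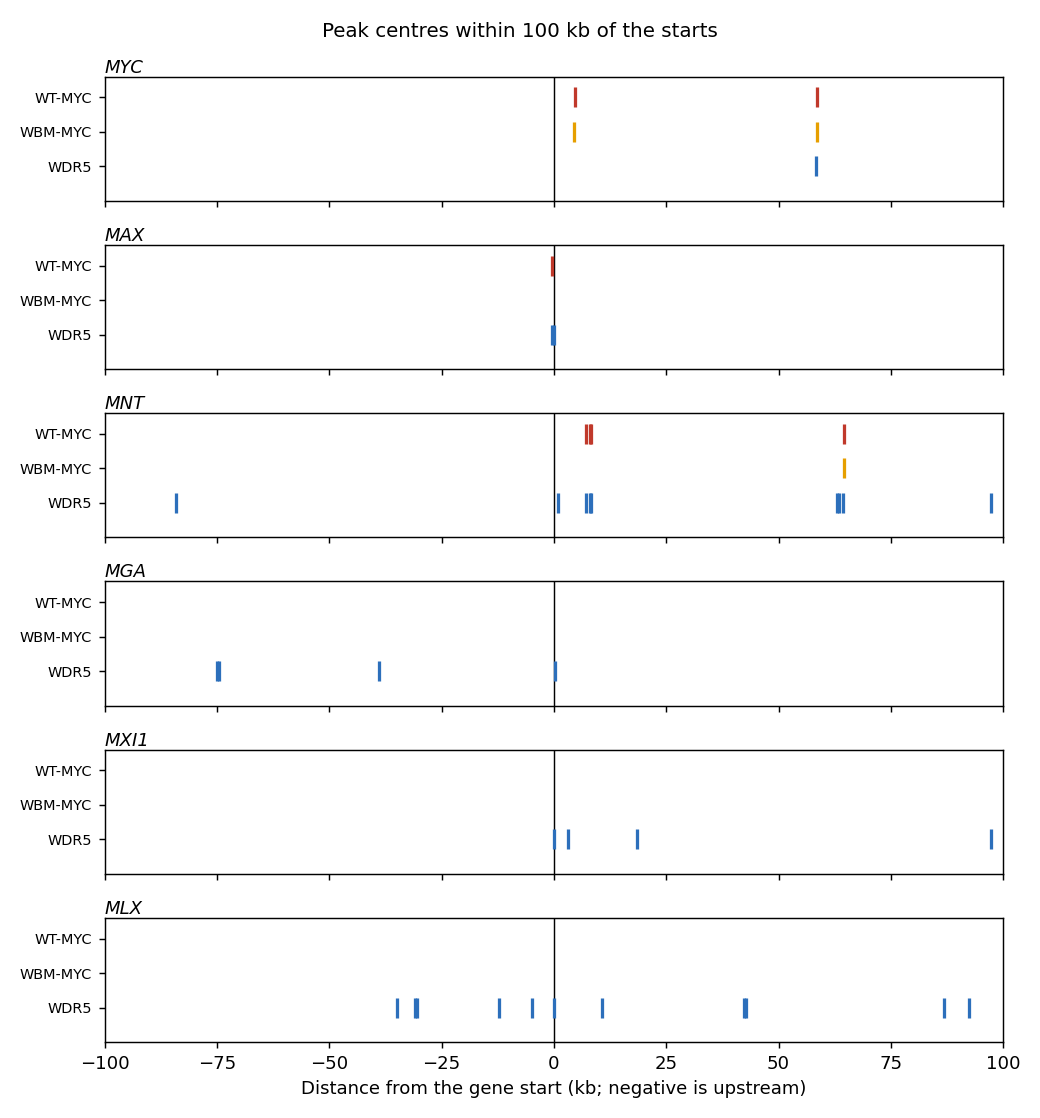
Centres of peaks within 100 kb of the start of each gene, by distance from the start in kb (negative is upstream), in 1 row per peak list. The lists meet 58.2 kb downstream of MYC and 64.3 kb downstream of MNT, and MGA, MXI1 and MLX have WDR5 peaks alone.

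MXI1, another MAX-binding repressor, had WDR5 at its start without MYC. The start is at 111967363 on chromosome 10 (plus strand). The WDR5 peak, 111967242 to 111967600, ran from 121 bp upstream to 237 bp downstream of it, was 359 bp wide and stood at line 6009 (35%). Just outside the 3 kb limit lay a second WDR5 peak, 264 bp wide, whose first base was 3110 bp downstream (line 13331). The next, 624 bp wide, began 18169 bp downstream (line 15914). RefSeq annotates 3 starts for MXI1 in GRCh38, with the later ones 2626 and 18391 bp downstream of the first. These spacings come from another build and are set beside the peak distances without conversion. The nearest WT-MYC peak was 360 kb downstream and the nearest WBM-MYC peak 3.65 Mb downstream. Of all WDR5 peaks, 34% lay at least as far from WT-MYC and 26.6% at least as far from WBM-MYC. The distances at MXI1 are thus not unusual for a WDR5 site.

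MGA, the T-box member that pairs with MAX, had the widest and earliest WDR5 peak among the 6 at the starts. Its start is at 41952610 on chromosome 15 (plus strand). The peak, 41952518 to 41953234, ran from 92 bp upstream to 624 bp downstream, was 717 bp wide and stood at line 1692 (9.85%). Of all WDR5 peaks 95.5% were narrower. A second wide WDR5 peak, of 1076 bp at line 1177, lay from 38331 to 39406 bp upstream. RefSeq annotates 3 starts for MGA in GRCh38, the first of them 39181 bp upstream of the next, again a spacing from another build.

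No MYC peak of either form lay within 7.96 Mb of the start of MGA. In the first decile of the WDR5 list, where the peak at MGA stands, WT-MYC was found in 39% of windows of 6001 bp and WBM-MYC in 13.3%. The nearest WT-MYC peak was 8.69 Mb downstream, and 135 of the 17171 WDR5 peaks (0.786%) lay at least as far from one. For WBM-MYC, whose nearest peak was 7.96 Mb downstream, 2233 (13%) did. The stretch without MYC was not confined to MGA. The first peak of either MYC list on chromosome 15 began at 49913014, and 141 WDR5 peaks lay before it. Of these, 3 were in the first decile of the WDR5 list, and they include the peaks at lines 1692 and 1177 at and upstream of MGA. Because this stretch was cut at the first MYC peak, it holds no MYC peak by definition. On the rest of the chromosome, 79 of 429 WDR5 peaks (18.4%) overlapped a WT-MYC peak, and on the whole chromosome 79 of 570 (13.9%) did.

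MLX, the partner of the parallel network, had a WDR5 peak over its start and the most WDR5 peaks around it. The start is at 40719086 on chromosome 17 (plus strand). The peak, 40719024 to 40719332, ran from 62 bp upstream to 246 bp downstream, was 309 bp wide and stood at line 7768 (45.2%). Within 100 kb of the start lay 11 WDR5 peaks, against 9 for MNT, 4 each for MGA and MXI1, 2 for MAX and 1 for MYC. The nearest other one ran from 4803 to 5160 bp upstream, on the side of COASY, the neighbouring gene for a coenzyme A synthesis enzyme in the RefSeq table. None of the 11 overlapped a MYC peak. Most WDR5 peaks of chromosome 17 did not overlap WT-MYC either, as 203 of 1158 (17.5%) did. The nearest WT-MYC peak was 113 kb downstream, at line 196 of its list (7.76%), and the nearest WBM-MYC peak 266 kb downstream. For WT-MYC, 56.5% of WDR5 peaks lay at least as far away.

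**Figure D3:**
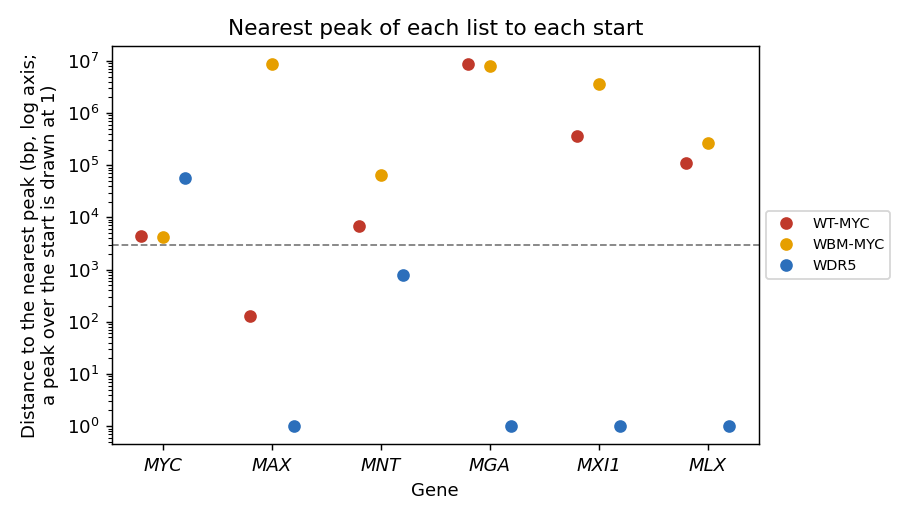
Distance in bp from each start to the nearest peak of each list, on a log axis, with a peak over the start drawn at 1 bp and the 3 kb limit as a dashed line. WDR5 is the nearest list at every gene but MYC, where both MYC lists are at about 4.3 kb, and the MYC lists are 7.96 Mb or more from MGA.

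Across the 6 genes, then, the distance to the nearest WT-MYC peak ran from 131 bp at MAX, through 4370 bp at MYC, 6794 bp at MNT, 112629 bp at MLX and 360426 bp at MXI1, to 8694530 bp at MGA. For WBM-MYC the order was MYC (4280 bp), MNT (64310 bp), MLX (266072 bp), MXI1 (3647162 bp), MGA (7960404 bp) and MAX (8684381 bp). WBM-MYC was the farther of the MYC forms at MAX, MNT, MXI1 and MLX, and the nearer at MGA. At MYC the peaks of the MYC forms overlapped, so 4280 and 4370 bp mark the same site and are not ranked. The WBM-MYC list is the shorter, with 690 peaks against 2527. Over all WDR5 peaks the median distance was 160 kb to WT-MYC and 1037 kb to WBM-MYC. These medians run from WDR5 peaks, while the distances of the genes run from their starts, and the start of MYC had no WDR5 peak. The distance to WT-MYC was below its median at MAX, MYC, MNT and MLX. That to WBM-MYC was below its median at MYC, MNT and MLX. At MYC both values are those of the peaks in the body.

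Within 100 kb, 3 genes had no peak of either MYC form, MGA, MXI1 and MLX, and all 3 had WDR5. Of windows of 200001 bp centred on a WDR5 peak, 57.5% likewise held neither MYC form, while 41.2% held WT-MYC and 14.5% WBM-MYC. The 3 of 6 genes with WT-MYC and 2 of 6 with WBM-MYC within 100 kb can be read only loosely against those shares. Both counts include MYC, whose start had no WDR5 peak closer than 58.2 kb, while the windows are centred on WDR5 peaks.

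The start with WT-MYC, that of MAX, had neither the widest nor the earliest WDR5 peak. With only that start, a relation of WT-MYC to width or file position could not be tested over these genes. The WDR5 peak inside the WT-MYC peak at MAX was 304 bp, narrower than the peaks at MLX (309 bp), MXI1 (359 bp) and MGA (717 bp), which had no MYC. It was earlier in its list than those of MXI1, MLX and MNT and later than that of MGA. Over the whole list, wider WDR5 peaks had WT-MYC more often, apart from the commonest width. Overlap needed 1 bp and was not adjusted for width, and a wider peak has more bases that can meet a WT-MYC peak. WT-MYC overlapped 10% of WDR5 peaks of 250 to 399 bp, 21.5% of those of 400 to 623 bp, 4.31% of those of 624 bp and 36.5% of wider ones. The peaks inside the WT-MYC peak at MAX and at MXI1 and MLX fall in the class of 250 to 399 bp, MNT in that below 250 bp, where WT-MYC overlapped 4.16%, and MGA in the widest.

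**Figure D4:**
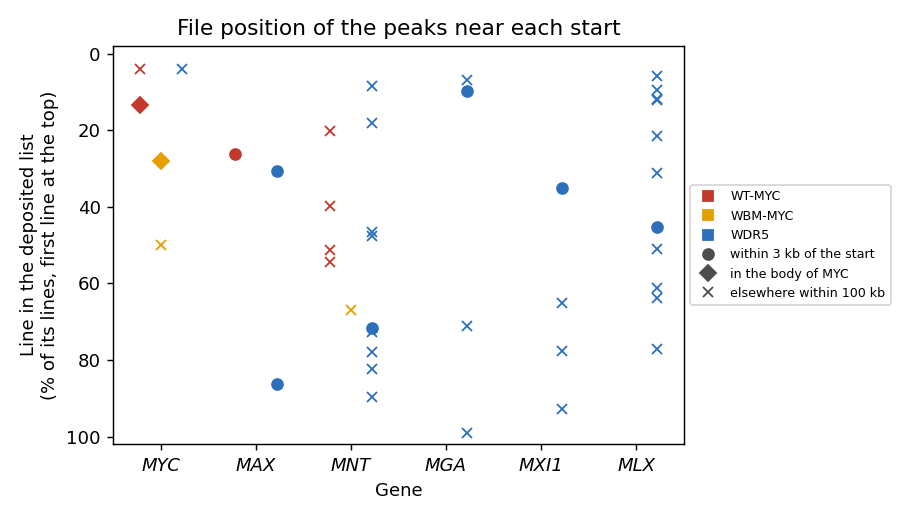
File position of each peak near the 6 starts, as a percent of the lines of its list with the first line at the top, by gene and list. Circles are peaks within 3 kb of the start, diamonds the peaks in the body of MYC and crosses other peaks within 100 kb. The WDR5 peaks at the starts range from 9.85% at MGA to 86.2% at MAX.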

How the data were processed

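Peak lists were the authors' own, deposited as 3 columns (chromosome, start counted from 0, and end) with no score, for WT-MYC, WBM-MYC and WDR5. The build hg19 and the tools Bowtie 0.12.7, an aligner, and CASAVA 1.8.2 are named in the submitters' processing notes. Of the peak caller, its threshold, the controls and any pooling of replicates, none is stated. Depth is unknown.

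The members and the lists of sequences and motifs were chosen with earlier results of these data known, and the genes named are those 6. Starts were those of the rule that chose the genes and were not checked against an hg19 annotation, and exons were not assigned. Starts were written from 1. A peak counted when any base lay within 3000 bp of the start, peaks overlapped when they shared 1 bp, and distances run to the nearest base. Strand came from RefSeq, or for MYC from the direction of its body. Background windows were laid end to end along each chromosome up to its last peak, assembly gaps included, or centred on WDR5 peaks. Counts in the windows were the same with bedtools 2.31.1, and distances were tested on simulated data. Other genes of the network (MYCN, MYCL, MXD1, MXD3, MXD4, MLXIP and MLXIPL) were not analysed here.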

Additional observations from a re-analysis of the deposited data

How the results depend on the processing

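The count of 5 genes with WDR5 near the start was between 4 and 6 under all alternatives, which were windows of 1, 10 and 100 kb, the peak centre in the window, the first 50% of each list, and the body of MYC added. The 100 kb window was chosen after the data were seen. Adding the body of MYC gave 2 genes with WT-MYC in place of 1, 1 with WBM-MYC in place of 0, and 1 where the MYC forms overlap in place of 0. A window of 10 kb gave 3 genes with WT-MYC (MAX, MYC and MNT), 1 with WBM-MYC, 2 where WT-MYC and WDR5 overlap and 1 where the MYC forms overlap. A window of 100 kb gave 3 with WT-MYC, 2 with WBM-MYC, 2 with all 3 lists, 3 where WT-MYC and WDR5 overlap and 2 where the MYC forms overlap. With these wider windows more sequence is counted. The remaining 25 planned recounts, an overlap of 50% of the shorter peak included, stayed within 1.5 times the reported count. No replicate could be left out, and peaks below the authors' threshold are not seen. No paired analysis was possible because there is 1 list each for the tagged MYC forms and WDR5, with no values per replicate.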
